A study of Mus musculus with 18 samples.

Results

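The replication-dependent histone genes are the clustered genes that supply most of the histone protein of a dividing cell. They were taken as the protein-coding genes of the GENCODE M21 mouse annotation whose symbol starts with Hist1h, Hist2h, Hist3h or Hist4h. There were 67 of them among the 54446 genes of the count table. They encode the linker histone H1 (6 genes) and the core histones H2A (18 genes), H2B (18), H3 (12) and H4 (13). On the mm10 build, 54 lay in the Hist1 cluster on chromosome 13 (chr13:21715763-23934851) and 10 in the Hist2 cluster on chromosome 3 (chr3:96219865-96270132). The Hist3 cluster on chromosome 11 held 2 (chr11:58948920-58956830), and the Hist4 cluster on chromosome 6 was the single gene Hist4h4 (chr6:136801553-136804415).

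Core histones form the spool around which DNA is wound into nucleosomes, and H1 binds the DNA between them. The genes are transcribed mainly while DNA is copied in S phase, and their messenger RNAs mostly end in a short hairpin instead of a poly(A) tail. The hairpin is bound by the stem-loop binding protein Slbp, guides cleavage of the 3' end together with the U7 small nuclear ribonucleoprotein, and takes part in the rapid removal of the message when S phase ends. In embryonic stem cells, which divide fast and spend much of their cycle in S phase, these genes are strongly expressed.

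The cells were mouse embryonic stem cells of a strain given as C57BL/6, grown with LIF and the inhibitors CHIR99021 and PD0325901, which hold such cells in the naive state. Nuclear RNA depleted of ribosomal RNA was sequenced in 18 libraries that formed 9 groups of 2. The first experiment compared cells labelled Ythdc1 cKO with a control after 0, 3 and 6 h of actinomycin D at 5 µg/ml, a drug that blocks transcription (12 libraries). Ythdc1 is a nuclear reader of N6-methyladenosine, a mark that the methyltransferase Mettl3 writes on RNA. The second compared cells labelled Mettl3 KO1, Mettl3 KO2 and Mettl3 control, all at time point 0 h (6 libraries). The labels name actinomycin D as the agent for every library, the 0 h ones included. How the Ythdc1 deletion was induced, and whether KO1 and KO2 are single clones, is not given in the sources used here. No label says that the 2 libraries of a group came from separate cultures, so p-values measure only the spread between these libraries, which may be technical.

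Reads assigned to genes numbered 4950973 to 30989044 per library, and the histone genes took 0.294 to 0.363% of them in the Ythdc1 experiment at 0 h and 0.212 to 0.300% in the Mettl3 experiment. Levels are given as counts per 1000000 gene reads (CPM) scaled by edgeR's TMM factors, so they are relative to the rest of the nuclear RNA in the library. Libraries labelled cKO at 3 h stood apart in their ERCC spike-ins, synthetic RNAs added in equal amount, which made up 0.0277 and 0.0272% of gene reads against 0.0771 to 0.189% in the other Ythdc1 libraries. The total for Ythdc1 went against its label before the drug, with 143 and 120.4 CPM in libraries labelled cKO and 145 and 132 CPM in control libraries (log2 -0.07 ± 0.079, standard error; adjusted p = 0.557). After 6 h it was lower, at 19.2 and 18.7 CPM in libraries labelled cKO and 51.3 and 47.2 CPM in control. Mettl3 stood at 32.6 and 31.3 CPM in the libraries labelled KO1, 22.7 and 22.1 CPM in those labelled KO2 and 36.6 and 31.9 CPM in Mettl3 control, and it was called lower in KO2 (adjusted p = 7.45e-10) but not in KO1 (adjusted p = 0.316). A gene total cannot show a deleted exon or a frameshift, so the groups are named by their labels below. Pluripotency markers were high throughout, at a summed 2842 to 4691 CPM over 10 genes.

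The hairpin is a sequence that most of these genes share, and it is shown because most genes tested below carry it in their annotated transcripts. The counts do not show which of the RNAs carried it. A 16-base hairpin with complementary arms of 6 bases and a loop of 4 bases was searched within 100 bases after the stop codon in the GENCODE M21 transcripts. The first arm had to start with GG, so the shares that follow hold for such hairpins only. Of the 52 histone genes with at least 16 annotated bases after the stop codon, 46 held one (88.5%), against 80 of 21018 other protein-coding genes (0.381%). The form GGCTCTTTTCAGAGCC occurred in 26 genes, of the H1, H2A, H2B and H3 classes, and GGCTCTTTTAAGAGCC in 6 of the H1, H2B and H3 classes. The form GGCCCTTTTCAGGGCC occurred in 7 genes, all of the H4 class. Of the other H4 genes, Hist1h4i and Hist2h4 carried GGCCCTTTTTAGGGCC, Hist1h4j and Hist1h4b carried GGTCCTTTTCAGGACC and Hist1h4a carried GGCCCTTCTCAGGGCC. Among the 46 hairpins, arms starting GGCC or GGTC occurred in H4 genes only. Each stretch below is 26 bases of mm10, read 5' to 3' on the strand of the gene, with the hairpin in capitals.

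Hist1h1d (chr13:23555782-23555807, plus strand): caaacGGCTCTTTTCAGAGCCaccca

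Hist1h2ad (chr13:23574890-23574915, plus strand): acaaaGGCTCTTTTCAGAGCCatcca

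Hist1h2bb (chr13:23747198-23747223, plus strand): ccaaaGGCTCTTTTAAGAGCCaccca

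Hist1h3e (chr13:23561898-23561923, minus strand): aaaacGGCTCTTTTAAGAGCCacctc

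Hist1h3g (chr13:23535884-23535909, plus strand): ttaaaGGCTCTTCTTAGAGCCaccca

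Hist2h2ac (chr3:96220413-96220438, minus strand): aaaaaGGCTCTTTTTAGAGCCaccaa

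Hist1h4d (chr13:23581945-23581970, plus strand): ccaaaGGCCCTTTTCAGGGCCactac

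Hist1h4i (chr13:22040961-22040986, minus strand): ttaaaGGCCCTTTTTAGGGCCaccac

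Hist1h4j (chr13:21735432-21735457, plus strand): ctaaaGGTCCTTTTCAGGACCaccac

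The coding sequences were close copies of each other, which limits how reads can be assigned. The 13 H4 genes had 12 distinct coding sequences, 85.3 to 100% identical (median 93.9%), and encoded 1 protein. The 12 H3 genes encoded 3 proteins, the 18 H2A genes 9, the 18 H2B genes 12 and the 6 H1 genes 6. Over windows of 50 bases, at least 50% of the transcript was unique among annotated transcripts for 33 genes, and under 10% was unique for 12. The values of the 12, which include Hist1h2ah, Hist1h2ai and Hist1h3h, are uncertain to that extent, because the counting may have dropped or split their reads. Hist2h2bb, with no unique window, overlaps the genes Gm20628 on the other strand and Gm42743 on its own. It had 102 to 1508 reads per Ythdc1 library and 0 in every Mettl3 library, and Hist1h2ao had 0 to 5 and 335 to 954. Levels of single genes were therefore not compared between the 2 experiments.

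Promoters were taken from RefSeq (GRCm38.p6, 250 bases before to 50 after the start) for 62 of the 67 genes, and 3 motifs were searched on both strands. None of the motifs contains another. The octamer ATTTGCAT, the letters bound by Pou2f1, was found in 7 of 18 H2A and 7 of 16 H2B promoters and in none of the H1, H3 or H4 promoters, so in 22.6% of the 62, against 1.97% of 27025 promoters of all genes. The CCAAT box was found in 85.5% of the histone promoters, against 41.1% of all, and in 3 of 12 H4 promoters. TATAAA was found in 56.5%, against 15.7% of all. A match is a description of the letters in the window and shows no binding. The promoters of the genes that lost the most and the least RNA in control cells after 6 h (below) are shown, Hist1h2ah with all 3 motifs and Hist1h4i with TATAAA alone, with matches in capitals.

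Hist1h2ah (GRCm38.p6 chr13:22035594-22035893, minus strand): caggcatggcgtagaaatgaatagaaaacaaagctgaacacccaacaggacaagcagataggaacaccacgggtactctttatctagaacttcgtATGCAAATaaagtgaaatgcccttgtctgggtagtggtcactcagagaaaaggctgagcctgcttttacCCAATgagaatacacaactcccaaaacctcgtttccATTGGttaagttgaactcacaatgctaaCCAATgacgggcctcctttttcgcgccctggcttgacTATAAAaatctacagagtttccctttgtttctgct

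Hist1h4i (GRCm38.p6 chr13:22041313-22041612, minus strand): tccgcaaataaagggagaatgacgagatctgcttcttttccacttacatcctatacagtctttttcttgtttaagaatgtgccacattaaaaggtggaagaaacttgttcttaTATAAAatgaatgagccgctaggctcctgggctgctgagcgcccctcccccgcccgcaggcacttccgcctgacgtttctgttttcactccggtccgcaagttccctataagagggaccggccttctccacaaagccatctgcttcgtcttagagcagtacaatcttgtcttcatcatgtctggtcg

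Before the drug, in control cells of the Ythdc1 experiment, the histone genes spanned a wide range of nuclear level. Per kilobase of exon, Hist1h1a stood highest at 542 CPM, followed by Hist1h4h at 303, Hist1h1b at 298, Hist2h2bb at 294 and Hist1h2bb at 201 (means of 2 libraries). The libraries of Hist1h4h, Hist1h1b and Hist2h2bb overlapped on this scale, and those of Hist1h1a lay above all. Hist1h1a and Hist1h1b, both linker histone genes, were named after their values were seen. H1 genes held the largest summed level, at 1307 and 1292 CPM in the 2 control libraries, ahead of H4 at 805 and 792 CPM. H2B summed to 623 and 676 CPM, H3 to 402 and 391 CPM and H2A to 321 and 319.9 CPM. These sums were not scaled by exon length or by the share of unique windows. The median share was 98.9% for H1 genes, 60.5% for H4, 53.1% for H2B, 38.0% for H3 and 27.0% for H2A. Its part in the order of the classes was not tested. The testis H1 gene Hist1h1t was near 0, at 0.325 and 0.916 CPM, and Hist2h2aa1 and Hist2h3c1 had no read in any library. After the filter on low counts, 62 genes were tested in the Ythdc1 experiment, 61 in the Mettl3 experiment and 58 in both.

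**Figure D1:**
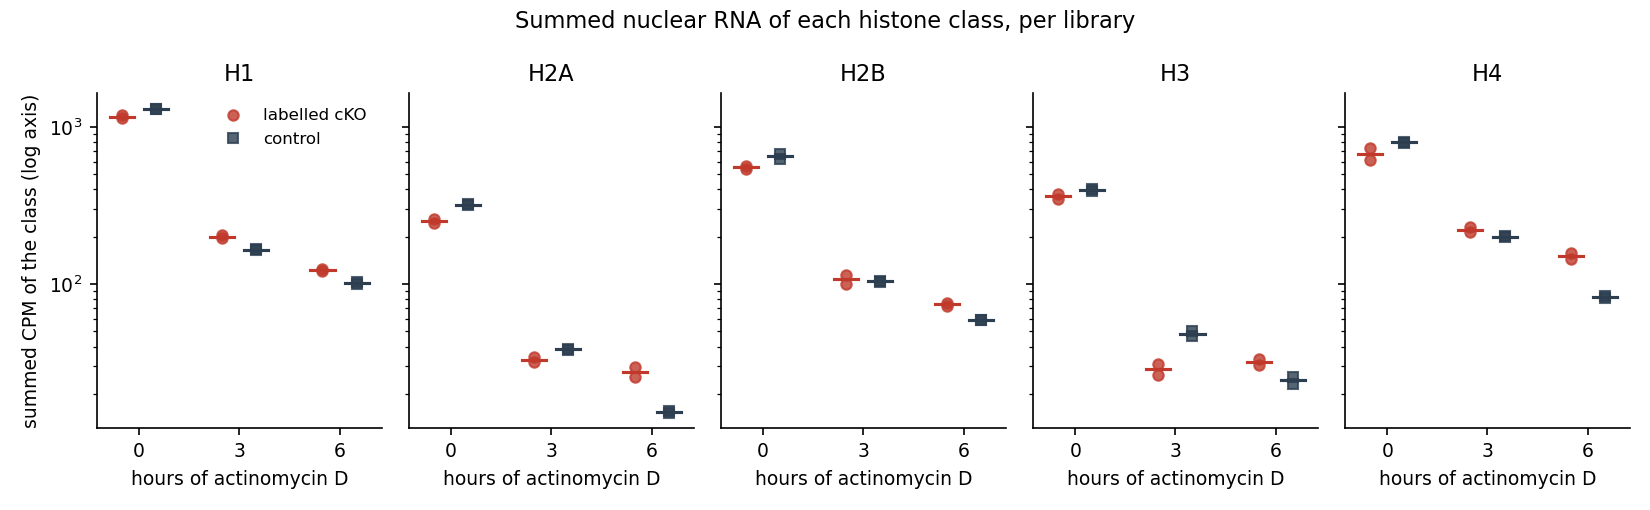
Summed CPM of each histone class (log axis) against hours of actinomycin D, with a circle for each library labelled cKO, a square for each control library and a bar at the mean of 2. Every class dropped between 0 and 3 h. At 3 h, the H2A and H3 sums of libraries labelled cKO sit below the control ones by CPM (above them per spike-in read). Those of H1 and H4 sit above the control ones, and those of H2B overlap them.

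In control cells, nearly every histone RNA fell after transcription was blocked. A gene was called at an adjusted p below 0.05 in edgeR's quasi-likelihood test, with adjustment over all 17900 genes tested. At 3 h, 61 of the 62 histone genes were called lower than at 0 h, with a median log2 change of -2.94, where 27.1% of all genes were called lower. At 6 h, 61 were called lower with a median of -3.98, where 31.7% of all genes were. The gene not called was Hist1h1t at both times. The median over all genes was 0.07 at 3 h and 0.03 at 6 h on this scale, and 41 of the 62 fell further between 3 and 6 h (18.5% of all genes). Of the summed CPM, 16.1% of the histone RNA remained at 3 h and 8.17% at 6 h, and per spike-in read 11.2% remained at 3 h and 4.33% at 6 h. In a nuclear fraction, degradation and export cannot be told apart, nor can fewer cells in S phase and less RNA per cell. Reads that the counting set aside as ambiguous grew with time in the drug. As a share of gene and ambiguous reads, they rose from 5.83 and 5.32% at 0 h to 12.8 and 13.0% at 6 h in control. In libraries labelled cKO they rose from 6.69 and 7.36% to 11.5 and 11.4%. Their part in the loss, and in its difference between the groups, was not tested.

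The classes differed in how much remained. In control cells at 6 h, summed H2A stood at 4.79% of its 0 h level, H3 at 6.19% and H1 at 7.78%. Summed H2B stood at 9.08% and H4 at 10.4%. The order was not the same by gene. Over single genes, leaving out those near 0 before the drug, the medians left were 8.52% (H2B), 7.81% (H4), 7.41% (H1), 5.25% (H2A) and 5.10% (H3). Per spike-in read the summed values were 2.53% for H2A, 3.28% for H3, 4.12% for H1, 4.81% for H2B and 5.52% for H4. The H2B sum leans on Hist2h2bb, which has the overlaps and lack of unique windows given above. This gene held 17.2 and 19.8 of the 59.3 and 58.7 CPM of H2B in control at 6 h, and kept 16.5%. By summed level, H4 had also lost the least after 3 h, with 25.2% left, against at most 16.1% in each of the other classes (17.5% and at most 11.2% per spike-in read). The median log2 changes at 3 h were -2.17 for H4 genes, -2.76 for H1, -2.94 for H2B, -3.06 for H2A and -3.11 for H3. These class values are descriptions of the genes and carry no test of their own.

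Among H1 genes, Hist1h1d (chr13:23553262-23560686), which encodes a somatic linker histone, had 270.3 and 270.3 CPM at 0 h, 24.0 and 24.6 after 3 h, and 19.6 and 15.7 after 6 h in libraries labelled cKO, against 281 and 289, 19.6 and 17.2, and 11.1 and 11.3 CPM in control. Both groups dropped by more than 10-fold at 3 h, with no overlap between times. The control change at 6 h was -4.67 ± 0.091 (adjusted p = 1.42e-31). Hist1h1c (chr13:23738808-23740367), another somatic linker histone, lost less, with 245 and 277, 60.2 and 57.4, and 52.2 and 50.2 CPM at 0, 3 and 6 h in libraries labelled cKO and 257 and 258, 41.7 and 45.7, and 37.5 and 35.5 CPM in control.

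Among H2A genes, Hist1h2ah (chr13:22035164-22035568) showed the largest control loss of the 62 at 6 h. It had 21.2 and 25.5 CPM at 0 h, 3.55 and 3.15 after 3 h, and 1.83 and 2.53 after 6 h in libraries labelled cKO, against 38.3 and 38.9, 3.24 and 2.95, and 0.226 and 0.540 CPM in control. The groups overlapped at 3 h only. The control change at 6 h was -6.56 ± 0.27 (adjusted p = 3.57e-22), but its 6 h level rests on 2 and 6 reads in the control libraries and 9 and 44 in those labelled cKO. The next H2A gene was Hist1h2ad at -6.02 ± 0.42, with 0.226 and 0.180 CPM (2 and 2 reads) left at 6 h in control against 11.7 and 15.4 at 0 h. The higher-expressed Hist1h2ai and Hist1h2ab changed by -4.83 and -4.51 in control at 6 h.

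The H2B gene Hist1h2bb (chr13:23746734-23747241), 1 of the 2 most abundant H2B genes, had 86.9 and 84.7, 17.2 and 14.2, and 7.95 and 5.64 CPM at 0, 3 and 6 h in libraries labelled cKO, against 99.8 and 104, 12.7 and 13.8, and 5.08 and 5.40 CPM in control. It fell at each step in both groups. Hist2h2bb lost less, at -2.59 ± 0.10 in control at 6 h, with the overlap with other genes given above.

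Of the H3 genes, Hist1h3e (chr13:23561534-23562369) had 74.9 and 87.1, 6.61 and 7.07, and 7.13 and 8.74 CPM at 0, 3 and 6 h in libraries labelled cKO, against 100.0 and 89.5, 10.3 and 11.5, and 6.33 and 5.85 CPM in control. By CPM the libraries labelled cKO were the lower ones at 3 h and the higher ones at 6 h, while per 1000 spike-in reads they were above control at 3 h (24.2 and 26.2 in libraries labelled cKO, 9.60 and 10.6 in control) and overlapped it at 6 h (3.83 and 4.55 in libraries labelled cKO, 4.50 and 4.10 in control). Hist1h3f changed by -4.33 ± 0.17 in control at 6 h and by -3.99 ± 0.17 in libraries labelled cKO. Hist1h3h had the largest H3 loss in control, -6.45 ± 0.35 at 6 h, where only 1 and 4 reads were left.

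Among H4 genes, Hist1h4i had lost the least of the 62 genes in control at 6 h. Hist1h4i (chr13:22040636-22041362) kept 24.6 and 23.7, 21.2 and 17.8, and 24.7 and 19.6 CPM at 0, 3 and 6 h in libraries labelled cKO, against 18.2 and 17.4, 6.99 and 8.72, and 12.3 and 11.1 CPM in control. In control it fell by 3 h (-1.17 ± 0.16, adjusted p = 4.59e-08) and was the only histone gene called higher at 6 h than at 3 h (0.56 ± 0.17, adjusted p = 6.96e-03, where 20% of all genes were called higher). With scaling to the spike-ins that last value no longer passed. Hist1h4j, in contrast, changed by -5.19 ± 0.23 in control at 6 h.

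The 2 most abundant H4 genes stood between these. Hist1h4d (chr13:23581598-23582735) had 130.5 and 163, 64.2 and 66.0, and 47.5 and 43.4 CPM at 0, 3 and 6 h in libraries labelled cKO and 148 and 151, 60.5 and 54.4, and 22.3 and 27.6 CPM in control. Hist1h4h (chr13:23531050-23531519) had 92.5 and 121, 36.1 and 33.7, and 17.1 and 15.9 CPM in libraries labelled cKO and 146 and 139, 24.1 and 24.5, and 8.13 and 8.19 CPM in control. At 3 and 6 h, both Hist1h4h libraries labelled cKO were above both control ones.

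**Figure D2:**
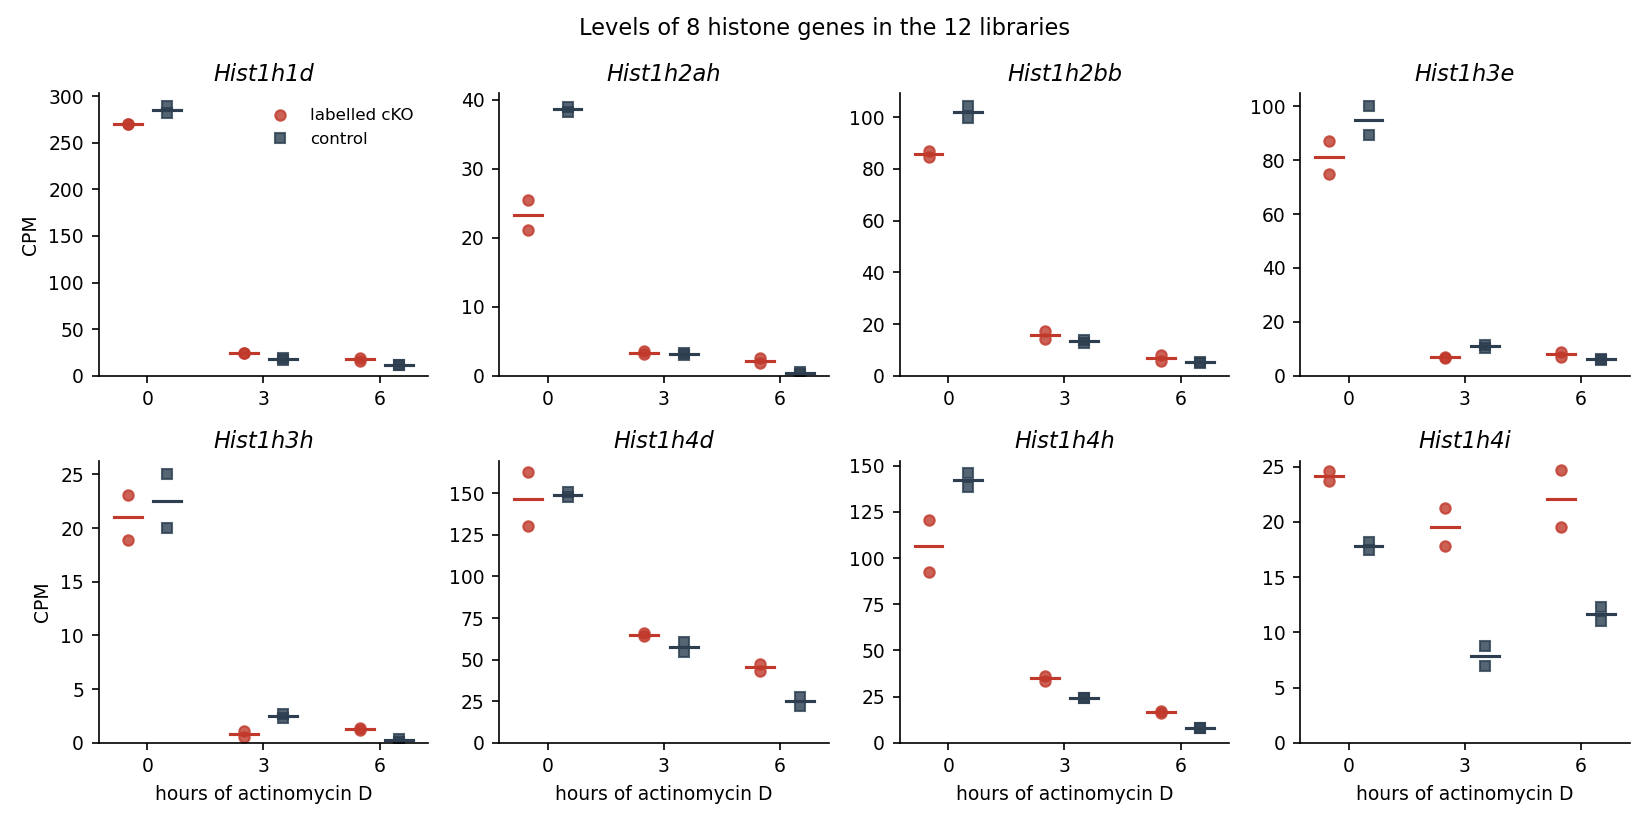
CPM of 8 histone genes against hours of actinomycin D, with a circle for each library labelled cKO, a square for each control library and a bar at the mean of 2. Hist1h4i stays at 17.8 CPM or more in libraries labelled cKO, while Hist1h1d, Hist1h2ah and Hist1h3h drop close to the axis in both groups.

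Genes with and without an annotated hairpin were set side by side. In control cells at 6 h, the 42 tested genes with an annotated hairpin had a median log2 change of -4.0 and the 20 without -3.82. For most of the 20, the annotated transcript ended at the stop codon or just after it, so no hairpin could be found there. The 2 medians therefore cannot show whether RNAs that lack the hairpin were lost to a different extent. Genes whose annotated transcript ended within 100 bases of the hairpin (20 tested) had a median of -4.06, and those with more than 100 bases annotated beyond it (22 tested) -3.99. By hairpin arm, the 31 GGCTCT genes had a median of -4.22 and the 9 GGCCCT genes, all H4, -3.48. These are descriptions, and the arm follows the class.

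In libraries labelled cKO, 61 of the 62 genes were called lower at 3 h than at 0 h (29.8% of all genes were called lower and 29.6% higher), with a median of -2.91, and 59 at 6 h (31.3% of all genes lower and 29.6% higher), with a median of -3.21. The gene not called at 3 h was Hist2h2be, with 0.626 and 1.29 CPM at 3 h against 1.85 and 1.56 at 0 h, and those not called at 6 h were Hist2h2be, Hist1h1t and Hist1h4i. Between 3 and 6 h, 22 fell (18.8% of all genes), 11 without replicate 2 of the cKO 6 h libraries and 61 with spike-in scaling, and 3 rose (15.3%), the H2A genes Hist1h2ak and Hist1h2ae and the H3 gene Hist1h3a. The names Hist1h3a and Hist1h2ae were chosen after their values were seen. Of the summed histone RNA, 19.6% remained at 3 h in libraries labelled cKO and 16.1% in control, and at 6 h 13.6% remained in libraries labelled cKO and 8.17% in control. Per spike-in read, 6.93% remained at 6 h in libraries labelled cKO and 4.33% in control. The 3 h values moved further. Against the spike-ins, which were scarce in the cKO 3 h libraries, the all-gene median at 3 h moved to 1.86. On that scale 69.8% of the histone RNA remained, and 47 genes were called lower and 5 higher. The cause of the low spike-in share was not tested.

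**Figure D3:**
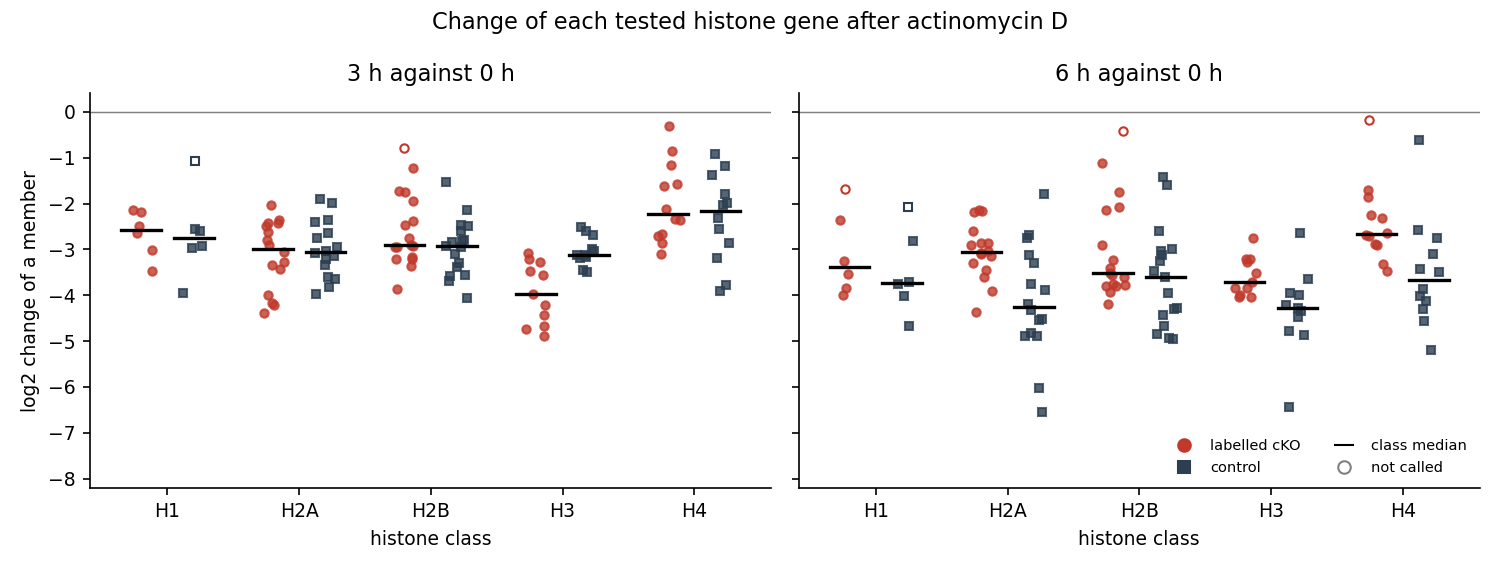
Log2 change of each tested histone gene at 3 h and 6 h of actinomycin D against 0 h, by class, in libraries labelled cKO (circles) and in control libraries (squares), with filled symbols for called genes and a bar at the class median. At 3 h the H3 median is -3.97 in libraries labelled cKO and -3.11 in control (-2.15 and -3.64 with spike-in scaling), and at 6 h the H4 median is -2.67 in libraries labelled cKO and -3.67 in control.

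Before the drug, the libraries labelled cKO held slightly less histone RNA than the control. The summed level was 2899 and 3113 CPM in libraries labelled cKO and 3457 and 3471 CPM in control libraries. Of the 62 genes, 16 were called lower (15.8% of all genes were) and 2 higher (13.5%), with a median log2 difference of -0.23. By class, 6 H2A genes were lower, 4 H4, 3 H2B, 2 H1 and 1 H3. The counts were not firm: 8 were called lower without control replicate 1 or without cKO replicate 1, 9 without control replicate 2, and 7 in DESeq2. With spike-in scaling, which moved the all-gene median to -0.35, 48 were lower. Of the 2 higher, 1 was left without either control replicate and 0 without cKO replicate 1 or in DESeq2.

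The lowest values belonged to H2A and H4 genes of the Hist1 cluster. Hist1h2ah had 21.2 and 25.5 CPM in libraries labelled cKO and 38.3 and 38.9 CPM in control (log2 -0.73 ± 0.14, adjusted p = 8.43e-05). Hist1h4j had 28.9 and 38.7 CPM in libraries labelled cKO and 50.9 and 55.7 CPM in control (-0.66 ± 0.14). The groups did not overlap in either gene, nor in Hist1h2ag and Hist1h2ak. Hist1h2ag had 12.9 and 14.4 CPM in libraries labelled cKO and 20.5 and 22.1 CPM in control, and Hist1h2ak had 21.4 and 23.5 CPM in libraries labelled cKO and 34.4 and 34.1 CPM in control. The 2 genes called higher were Hist1h4i (0.44 ± 0.14) and Hist3h2a of the Hist3 cluster, with 6.62 and 5.14 CPM in libraries labelled cKO and 2.17 and 2.29 CPM in control (1.39 ± 0.36, adjusted p = 3.08e-03). Hist3h2a shares exon bases with Trim17 on the same strand, and neither Hist1h4i nor Hist3h2a was called in DESeq2. The call of Hist1h4i was lost with spike-in scaling and without control replicate 1, control replicate 2 or cKO replicate 1, and that of Hist3h2a without cKO replicate 1.

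Genes of DNA replication moved the same way at 0 h. Of a list of 32 S-phase genes, which includes Pcna, the Mcm helicase genes and Slbp, 19 were called lower in libraries labelled cKO, the other 13 were not called, and its summed level was 5179 to 5250 CPM there and 6269 to 6331 CPM in control. Of 16 G2 and M phase genes, 9 were lower and 2 higher, of 10 pluripotency genes, 7 were lower and 1 higher, and of 11 replication-independent histone genes, whose RNAs are polyadenylated, 6 were lower and 3 higher. Over all genes, 15.8% were lower and 13.5% higher. The part of these shifts in the histone values was not tested.

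Whether the loss after the drug differed between the groups was tested as the difference of the log2 changes. At 3 h, 11 of the 62 genes had lost less in libraries labelled cKO (11% of all genes) and 9 had lost more (8.39%). Of the 9, 7 were among the 11 H3 genes tested, and the H3 median difference was -0.93 on this scale and 1.41 with scaling to the spike-ins, against 0.04 and 2.40 over all 62. The H3 genes were Hist1h3a, Hist1h3b, Hist1h3c, Hist1h3d, Hist1h3g, Hist1h3h and Hist1h3i. The other 2 were Hist1h2ae and Hist1h2bj, and all 9 but Hist1h3g and Hist1h3h were named after their values were seen.

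Hist1h3a had 0.487 and 0.722 CPM at 3 h in libraries labelled cKO and 2.65 and 2.43 CPM in control, after 18.2 and 18.9 CPM at 0 h in libraries labelled cKO and 21.7 and 22.7 CPM in control, a difference of -1.75 ± 0.40 (adjusted p = 1.39e-03). Hist1h3b had 2.23 and 1.55 CPM at 3 h in libraries labelled cKO and 4.49 and 4.92 CPM in control (-1.54 ± 0.29), and Hist1h3h had 1.11 and 0.516 CPM in libraries labelled cKO and 2.28 and 2.69 CPM in control (-1.56 ± 0.39). In each the libraries labelled cKO were below both control libraries by CPM, but per spike-in read they were above both in Hist1h3b and overlapped control in Hist1h3a and Hist1h3h. Few reads remained, with 16 and 10 for Hist1h3h in libraries labelled cKO and 31 and 41 in control.

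The genes that had lost less at 3 h included H4 and H1 genes. Hist1h4h differed by 0.93 ± 0.13 (adjusted p = 1.74e-06), Hist1h4i by 0.86 ± 0.21, Hist1h1a by 0.74 ± 0.088 and Hist1h1d by 0.48 ± 0.11. The direction at 3 h rests on the scaling. Against the spike-ins, with an all-gene median of 2.36, 57 genes had lost less. The H3 median of 1.41 lay below the all-gene median, while the H4 median of 2.56 lay above it. DESeq2 called 4 genes as having lost more and 11 as having lost less. Without replicate 2 of the cKO 3 h libraries, 3 genes had lost more, and without replicate 1, 7 had lost less.

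At 6 h the genes called had all lost less in libraries labelled cKO. Of the 62 genes, 25 had lost less in libraries labelled cKO (9.77% of all genes) and 0 had lost more (9.35%) in edgeR's test, with 0 lower at an unadjusted p below 0.05 and 0 in DESeq2. The median difference was 0.77, and 53 of 62 were positive. Each difference is relative to the 0 h level of its own group, and the summed 0 h level was lower in libraries labelled cKO. All classes had called genes: 7 of 16 H2A genes, 7 of 12 H4, 5 of 17 H2B, 3 of 11 H3 and 3 of 6 H1. With spike-in scaling the all-gene median here was -0.09 (-0.03 with TMM scaling), and 21 genes had lost less. Without replicate 2 of the cKO 6 h libraries, the deeper of the 2, the count was 13.

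Each 6 h difference contains the control change at 6 h, so it is not independent of the control losses given above. Of called histone genes with at least 20 counts on average, the 4 largest control losses and 4 largest differences were in the same genes. The 2 largest differences were in H2A genes. Hist1h2ah differed by 3.26 ± 0.46 (adjusted p = 1.82e-06), on the few reads given above, and 9.36% of its 0 h level remained in libraries labelled cKO against 0.992% in control. Hist1h2ad had 1.22 and 1.44 CPM at 6 h in libraries labelled cKO and 0.226 and 0.180 CPM in control, after 11.7 and 11.8 CPM at 0 h in libraries labelled cKO and 11.7 and 15.4 CPM in control (2.94 ± 0.69, adjusted p = 1.77e-03). Hist1h2ai had 4.69 and 3.28 CPM in libraries labelled cKO and 1.36 and 1.53 CPM in control at 6 h (1.73 ± 0.32). In these 3 genes the groups did not overlap at 6 h.

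All 12 H4 differences lay above 0, with a median of 1.15. For Hist1h4h, 15.5% of the 0 h level remained at 6 h in libraries labelled cKO and 5.74% in control (1.41 ± 0.17, adjusted p = 1.14e-07). Hist1h4d differed by 0.86 ± 0.14, Hist1h4j by 2.28 ± 0.36 and Hist1h4k by 1.42 ± 0.25. Hist1h3h, which at 3 h had lost more by TMM scaling and less by spike-in scaling (0.79), had lost less at 6 h (2.40 ± 0.65, adjusted p = 6.99e-03), with 1.43 and 1.21 CPM in libraries labelled cKO and 0.113 and 0.360 CPM in control.

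**Figure D4:**
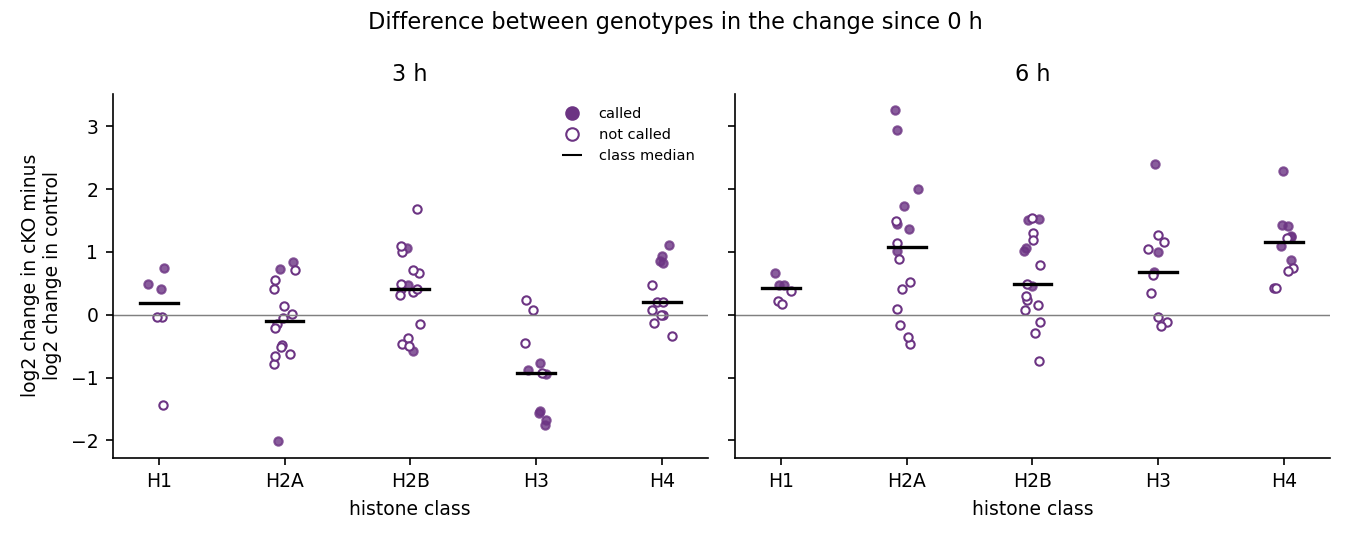
Log2 change since 0 h in libraries labelled cKO minus that in control, at 3 h and 6 h of actinomycin D, for each tested histone gene by class, with filled circles for called genes and a bar at the class median. At 3 h the H3 median is -0.93 with 7 called genes below 0 (1.41 with spike-in scaling), and at 6 h all 25 called genes lie above 0.

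Other gene groups are given beside this for scale. At 6 h, the difference was called for 1 of 11 replication-independent histone genes in each direction, for 20 of 320 other single-exon protein-coding genes higher and 14 lower, and for 7 of 32 S-phase genes higher and 6 lower, beside 9.77% of all genes higher and 9.35% lower. In control at 6 h, 2 of the 11 replication-independent histone genes had fallen and 7 had risen, and 104 of the 320 other single-exon genes had fallen, where 31.7% of all genes fell and 33.1% rose. With spike-in scaling, 7 of the 11 had fallen and 3 had risen.

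The clusters were compared next. In control at 6 h, 50 of 51 tested Hist1 genes and 8 of 8 Hist2 genes were called lower (31.7% of all genes). The medians were -3.99 and -3.78, and Hist4h4 changed by -4.02 ± 0.17. The 2 Hist3 genes lost less, with -1.78 ± 0.51 for Hist3h2a and -1.42 ± 0.29 for Hist3h2ba, and both were low, with at most 9.12 CPM in any Ythdc1 library. At 6 h, 23 of 51 Hist1 genes and 2 of 8 Hist2 genes had lost less in libraries labelled cKO (9.77% of all genes). Neither Hist3 gene nor Hist4h4 passed. Gaps of over 100000 bases split the Hist1 cluster into blocks of 18, 5, 29 and 2 genes. At 0 h, 6 of 15 tested genes of the first block were lower in libraries labelled cKO (median -0.41) and 5 of 29 of the third block (median -0.17), where 15.8% of all genes were, a share close to that of the third block. In 12 places an H2A and an H2B gene lay head to head, 175 to 305 bases apart.

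In the second experiment, the libraries labelled Mettl3 KO1 held more histone RNA than the control. The summed level was 2991 and 3030.2 CPM in KO1 libraries, 2459 and 2384 CPM in KO2 libraries and 2132 and 2063 CPM in Mettl3 control libraries. In KO1, 42 of the 61 genes tested were called higher (23.9% of all genes) and 1 lower (22.2%), with a median log2 difference of 0.49, and the lower gene, Hist2h2ac, no longer passed without KO1 replicate 2. For KO2, 24 passed as higher (24.4%) and 5 as lower (26.4%), and the median was 0.14. The 5 lower were Hist1h2bh, Hist3h2ba, Hist1h3f, Hist1h4k and Hist1h4a, the last named after its value was seen, with Hist1h4k at -0.26 on this scale and at 0.30 with scaling to the spike-ins. Of this count, 3 were lower without Mettl3 control replicate 1, 2 without KO2 replicate 2 and 2 in DESeq2. KO1 and KO2 were set against the same control libraries. With spike-in scaling, which moved the all-gene median to 0.17 in KO1 and to 0.53 in KO2, 44 were higher in KO1 and 52 in KO2, where 1 was lower.

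H4 had the largest class median of the direct comparison between the 2 knockout labels. H4 genes summed to 639.8 and 679 CPM in KO1 libraries, 419 and 400.2 CPM in KO2 libraries and 416 and 389 CPM in control libraries. Of the 13, 12 were called higher in KO1 than in control (23.9% of all genes) and 2 in KO2 (24.4%). Compared directly, 12 of 13 were higher in KO1 than in KO2, with a median of 0.74 on this scale and 0.36 with scaling to the spike-ins. Over all 61 genes, 34 were higher in KO1 than in KO2 (24.5% of all genes) and 5 lower (21.6%). Under spike-in scaling, with an all-gene median of -0.38, the split was 11 higher and 17 lower, while 7 of the H4 genes stayed higher and 1 was lower.

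Hist4h4 had 46.3 and 51.6 CPM in KO1 libraries, 25.1 and 23.6 in KO2 and 23.8 and 25.2 in control (0.99 ± 0.075 in KO1, adjusted p = 6.69e-20, and -0.01 ± 0.081 in KO2). Hist1h4h had 75.9 and 78.8 CPM in KO1, 42.6 and 42.8 in KO2 and 43.5 and 35.6 in control (0.97 ± 0.064 in KO1). In both genes the KO1 libraries were above all others, and KO2 overlapped control by CPM and lay above it per spike-in read. Hist1h4d had 208 and 224 CPM in KO1, 131 and 128 in KO2 and 125 and 118 in control.

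By summed CPM, H1 genes made up the largest class here too, at 1419.7 and 1400.0 CPM in KO1 libraries, 1304 and 1265 in KO2 and 1054 and 1042 in control. As above, these sums were not scaled by exon length or by the share of unique windows. Hist1h1d was higher in both, with 453 and 447 CPM in KO1, 401 and 403 in KO2 and 292 and 299 in control (log2 0.61 ± 0.033 in KO1 and 0.44 ± 0.033 in KO2). Among H3 genes, Hist1h3g was higher in KO1, with 53.2 and 56.7 CPM, against 35.2 and 32.0 in KO2 and 31.1 and 25.1 in control. By CPM, Hist1h3f went in opposite directions, which per 1000 spike-in reads was not so for KO2 (96.4 and 85.3 in KO2, 99.6 and 83.6 in control). It stood at 74.4 and 78.3 CPM in KO1, 35.3 and 31.2 in KO2 and 53.2 and 45.8 in control, a difference of 1.20 ± 0.065 between KO1 and KO2.

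H2B genes were called higher in 12 of 17 cases in KO1 and in 9 in KO2, where 2 were lower. Over all genes, 23.9% were higher in KO1, and 24.4% were higher and 26.4% lower in KO2. Hist1h2bb had 34.1 and 40.6 CPM in KO1, 29.3 and 23.8 in KO2 and 24.0 and 21.8 in control. Hist1h2bh had 16.8 and 17.5 CPM in KO1, 7.68 and 6.59 in KO2 and 12.4 and 14.6 in control, lowest in KO2 (-0.92 ± 0.13, adjusted p = 2.42e-09). The other H2B gene lower in KO2 was Hist3h2ba (-0.72 ± 0.30). Hist1h2bp rose in both, by 0.94 in KO1 and 0.84 in KO2.

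A few genes of the H2A, H2B and H3 classes were higher in KO2 than in both KO1 and control. Hist3h2a had 1.27 and 2.00 CPM in KO1, 5.13 and 5.56 in KO2 and 0.716 and 1.79 in control, and Hist1h2ac had 2.74 and 2.39 CPM in KO1, 6.53 and 8.34 in KO2 and 2.63 and 2.13 in control. In both genes the KO2 libraries were above all others. Hist2h3c2 and Hist2h2be were also higher in KO2 than in control (1.00 ± 0.24 and 1.09 ± 0.29), and all 4 were called lower in KO1 than in KO2. These genes, with the H1 gene Hist1h1e (named after its value was seen), were the 5 called in that direction. Markers of feeder fibroblasts moved with them, with 5 of 7 tested called higher in KO2 than in control (24.4% of all genes). The 10 listed genes summed to 228 to 230 CPM in KO1, 586 to 593 CPM in KO2 and 233 to 251 CPM in control, and their part in the result was not tested. The gene lower in KO1 was Hist2h2ac, with 5.38 and 4.52 CPM in KO1 and 8.16 and 5.53 CPM in control, a call lost without Mettl3 control replicate 1 or KO1 replicate 2, in DESeq2, with spike-in scaling and with no filter.

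**Figure D5:**
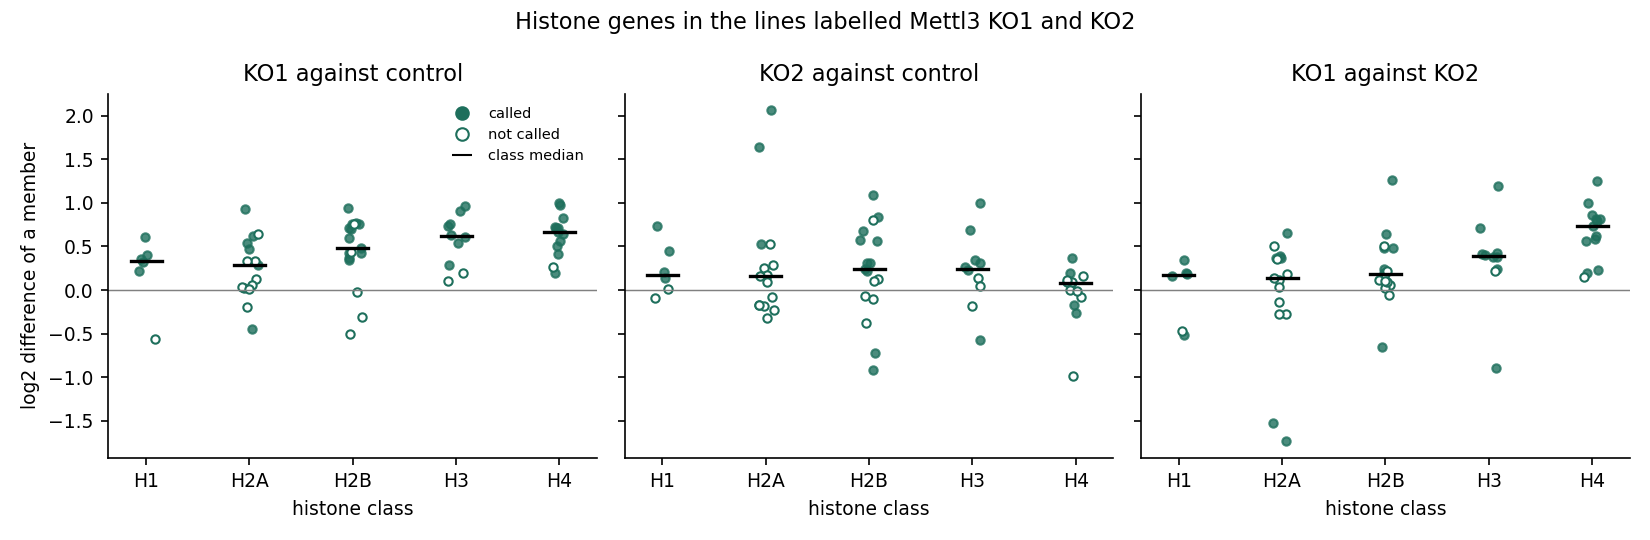
Log2 difference of each tested histone gene by class, for KO1 against control, KO2 against control and KO1 against KO2, with filled circles for called genes and a bar at the class median. The H4 median is 0.66 in KO1, 0.08 in KO2 and 0.74 between them.

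S-phase genes were measured in these libraries as well. Of the 32, 25 were called higher and 5 lower in KO1, and 11 higher and 15 lower in KO2 (27 higher and 1 lower with spike-in scaling), where 23.9% of all genes were higher and 22.2% lower in KO1 and 24.4% higher and 26.4% lower in KO2. Their summed levels were 6868 to 6917 CPM in KO1, 5289 to 5301 CPM in KO2 and 5563 to 5650 CPM in control. Their part in the histone values was not tested.

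Genes that make or remove the hairpin messages were measured in the same libraries. Slbp, which binds the hairpin and is also among the 32 S-phase genes, had 96.5 and 102 CPM in KO1, 56.7 and 59.3 in KO2 and 83.1 and 93.5 in Mettl3 control, called higher in KO1 (0.17 ± 0.052, adjusted p = 5.01e-03) and lower in KO2 (-0.61 ± 0.054, adjusted p = 1.52e-16), where per spike-in read the KO2 and control libraries overlapped. At 0 h it had 89.3 and 80.8 CPM in libraries labelled cKO and 80.2 and 87.0 CPM in control (adjusted p = 0.862). Eri1, an exonuclease that trims the hairpin end, had 72.8 and 71.8 CPM in KO1, 51.0 and 50.6 in KO2 and 68.6 and 67.1 in control, called lower in KO2 than in control (-0.42 ± 0.057), though per 1000 spike-in reads it was higher in KO2 (139.4 and 138.5 in KO2, 128.5 and 122.6 in control), and higher in KO1 than in KO2 (0.51 ± 0.056).

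Npat, the coactivator of histone transcription, lost RNA after the drug but less in libraries labelled cKO, with 125 and 118, 59.7 and 66.5, and 41.2 and 43.9 CPM at 0, 3 and 6 h there and 104 and 108, 58.3 and 55.1, and 26.2 and 26.1 CPM in control (difference at 6 h 0.51 ± 0.12, adjusted p = 1.65e-03). Lsm11, a protein of the U7 particle, was higher at 0 h in libraries labelled cKO, with 18.5 and 19.8 CPM against 13.3 and 12.5 CPM in control (0.57 ± 0.14, adjusted p = 1.70e-03). Of the 28 such genes tested, 5 were higher and 8 lower at 0 h in libraries labelled cKO, 17 higher and 3 lower in KO1, and 5 higher and 13 lower in KO2. Over all genes, 13.5% were higher and 15.8% lower at 0 h, 23.9% higher and 22.2% lower in KO1, and 24.4% higher and 26.4% lower in KO2. With spike-in scaling, 21 of the 28 were lower at 0 h, and 20 were higher and 3 lower in KO2. The U7 RNA gene Rnu7 was listed at 0 in all 18 libraries.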

How the data were processed

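The 18 libraries held nuclear RNA of mouse embryonic stem cells, depleted of ribosomal RNA and prepared with a stranded SMARTer kit, per the labels' protocols. What the authors deposited were raw read counts, 1 whole number for each gene and library. The submitters' processing notes name CASAVA, Trimmomatic 0.38, HISAT2 2.1.0, HTSeq and the mm10 build. For the counting, the sources used here give neither the strand setting nor the annotation release, and reads of overlapping genes may be split or lost.

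From the counts, edgeR 4.0.16 (R 4.3.3) fitted quasi-likelihood models to the 12 Ythdc1 and the 6 Mettl3 libraries separately, with TMM scaling, filterByExpr at a minimum count of 10 and robust dispersion. Benjamini-Hochberg adjustment ran over all 17900 and 21802 genes tested, and a gene was called at an adjusted p below 0.05. Standard errors were taken as the log2 change divided by the square root of F. Alternatives were DESeq2 1.42.0, other scalings (spike-ins among them), filters, a replicate block and leaving out single libraries. On simulated counts, the test recovered 82% of 2-fold changes for control at 6 h over 17114 genes and 95% for KO1 over 21333 genes.

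The histone genes and the gene lists were chosen with earlier results of these data known. Named were the 2 highest members of each class, the called members with the 4 highest and 4 lowest log2 changes in 5 comparisons (a mean of at least 20 counts), all Hist3 and Hist4 members, members against the direction of the others, and Slbp, Npat, Eri1 and Lsm11. Other names were chosen after their values were seen, and list members beyond these are given as counts.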

Additional observations from a re-analysis of the deposited data

Results flagged for a closer look

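The results below came from a test of a difference between groups under the same contrast. The change under actinomycin D differed between libraries labelled cKO and control for 11 histone genes that lost less and 9 that lost more at 3 h, and for 25 that lost less and 0 that lost more at 6 h in edgeR's test (0 lower at an unadjusted p below 0.05, 0 in DESeq2). Between KO1 and KO2, 34 genes were higher and 5 lower.

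At 3 h, the log2 change in libraries labelled cKO minus that in control was 0.41 for Hist1h1c, 0.48 for Hist1h1d, 0.84 for Hist1h2ah, 0.72 for Hist1h2ai and 0.48 for Hist1h2bb. It was 0.93 for Hist1h4h, 0.86 for Hist1h4i and 0.82 for Hist1h4j. For the H3 genes it was -0.94 for Hist1h3g and -1.56 for Hist1h3h, which turned to 1.41 and 0.79 with scaling to the spike-ins.

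At 6 h, the H1 genes Hist1h1c and Hist1h1d differed by 0.47 and 0.67. The H2A genes differed by 1.37 (Hist1h2ab), 1.45 (Hist1h2ac), 2.94 (Hist1h2ad), 2.00 (Hist1h2ag), 3.26 (Hist1h2ah), 1.73 (Hist1h2ai) and 1.02 (Hist1h2ak). The H2B genes Hist1h2bh and Hist2h2bb differed by 1.52 and 0.46, and the H3 genes Hist1h3e and Hist1h3h by 0.68 and 2.40. The H4 genes differed by 0.86 (Hist1h4d), 1.41 (Hist1h4h), 2.28 (Hist1h4j) and 1.42 (Hist1h4k).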

How the results depend on the processing

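With spike-in scaling, 47 were lower (and 5 higher) at 3 h in libraries labelled cKO, and 21 had lost less at 6 h. These counts of lower genes and of genes that had lost less stayed within 1.5 times. In 6 other comparisons, counts of called genes moved by over 1.5 times. At 0 h, 48 were lower and 1 higher in libraries labelled cKO. Between 3 and 6 h in libraries labelled cKO, 61 were lower, and the 3 h difference gave 0 that lost more and 57 that lost less. In KO1, 0 were lower, in KO2 1 was lower and 52 higher, and between KO1 and KO2 17 were lower and 11 higher. The same scaling reversed single values: Hist1h4k in KO2 (0.30), Hist2h2bb (0.62), Hist1h4d (0.66), Hist1h4h (0.21), Hist1h4i (1.52) and Hist3h2ba (0.11) at 3 h in libraries labelled cKO, and Hist1h3h (0.79) and Hist1h3g (1.41) in the 3 h difference. DESeq2's Wald test gave 7 lower and 0 higher at 0 h, 4 that lost more at 3 h, 0 lower in KO1 and 2 lower in KO2. Requiring 50 reads in 2 libraries left 1 higher at 0 h, and no filter left 0 lower in KO1. The cause of these shifts was not tested, beyond the all-gene medians given with the spike-in values.

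Leaving out single libraries gave 8 to 18 lower and 0 to 2 higher at 0 h, 11 to 22 lower between 3 and 6 h in libraries labelled cKO, 3 to 10 that lost more and 7 to 13 that lost less at 3 h, 13 to 27 that lost less at 6 h, 0 to 1 lower in KO1 and 2 to 6 lower in KO2. The other counts stayed within 1.5 times under this. Without both cKO 3 h libraries, a choice made after seeing the data, 13 were lower at 0 h and 25 had lost less at 6 h. Deviations of same-numbered libraries correlated weakly (-0.00042 to 0.0935 over 15 Ythdc1 pairs and -0.029 to 0.0071 over 3 Mettl3 pairs). Count noise lowers such values, so they cannot show whether these libraries shared a culture or batch. With the replicate block, 16 were lower and 2 higher at 0 h, 13 had lost less at 3 h and 22 were higher in KO2. Depth limits single values at 6 h, where Hist1h2ah had 2 and 6 reads, Hist1h2ad 2 and 2 and Hist1h3h 1 and 4 in control libraries.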
